A study of Drosophila melanogaster and Drosophila simulans and Drosophila yakuba with 27 samples.

Results

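The cytoplasmic ribosomal protein genes, read here as every gene of the deposited expression table whose symbol begins with RpL or RpS, numbered 92 of 15439 genes. Of these, 54 carried names of the large subunit and 38 names of the small subunit. Their signal was compared between eye-antennal imaginal discs, wing imaginal discs and brains of wandering third-instar larvae raised at 25 °C. The series asks how expression in the developing eye has diverged between Drosophila species. Each tissue had 9 libraries, 1 from each line, so the 9 lines served as the replicates of a tissue and no tissue of a line was measured again. The lines were the D. melanogaster strains RAL-208 (genotype DGRP-208) and Canton S, D. ananassae with the inversion In(3R)A, D. simulans carrying the white allele w[501], and the wild-type species D. virilis, D. mojavensis, D. willistoni, D. pseudoobscura and D. yakuba. The labels name no transgene and no treatment for any line. The labels do not say how many animals went into a library, nor whether these were male or female.

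Ribosomal proteins and ribosomal RNA together form the large and the small subunit of the ribosome, which makes all proteins of the cytosol. One copy of nearly every protein is needed per ribosome, and in Drosophila the loss of 1 of the 2 copies of many of these genes gives the Minute phenotype of slow development and short bristles. Imaginal discs are growing epithelia at this stage, whereas the larval brain holds dividing neuroblasts beside many cells that no longer divide. In bulk tissue, fewer cells of a type and less RNA per cell cannot be told apart.

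The deposited signal is a read count divided by gene length and scaled per library, so levels of different genes can be set side by side. The libraries held 3642547 to 20473119 counted reads. Neuronal marker genes checked the brain label. Of 11 listed, 9 were in the table and 6 were tested, and all 6 were lower in both discs. Their summed signal was 416 to 1119 in brains, 51.1 to 201 in eye-antennal discs and 15.1 to 71.3 in wing discs, and among wing discs Cha was listed at 0 in D. willistoni and Cha, Syt1, VGlut and Gad1 in D. mojavensis. The 8 eye-antennal markers summed to 474 to 818 in their own tissue and 36.8 to 91.8 in wing discs, and the 6 wing markers to 311 to 557 in wing discs and 7.88 to 62.8 in eye-antennal discs.

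A value in every line was present for 67 of the 92 genes. No value was missing in either D. melanogaster strain. Missing values numbered 14 in D. simulans, 12 in D. mojavensis, 10 each in D. pseudoobscura and D. virilis, 8 in D. willistoni, 7 in D. ananassae and 3 in D. yakuba. These make 3.26% to 15.2% of the 92 genes per species, against 16.7% to 23.2% of all genes. Of the 25 genes with a gap, 11 lacked 1 line and 14 lacked 2 or more. Among them were 15 of the 23 paralog names and 10 of the 69 others. The 10 others were RpL17, RpL22, RpL36A, RpL6 and RpS3A, each missing in D. simulans, RpL19 in D. willistoni, RpS29 in D. virilis, and RpL38, RpL41 and RpL5, which lacked 3 to 7 lines. RpL41, which encodes the shortest protein of the ribosome, had a value in D. melanogaster only. RpL5, which binds 5S ribosomal RNA together with the product of RpL11, lacked a value in D. simulans, D. mojavensis and D. virilis. Of the 67 genes with full values, 66 had a signal of at least 1 in at least 9 libraries and were tested. The remaining gene was RpS28-like, which peaked at 2.47.

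Ribosomal protein genes were among the most abundant transcripts in all 3 tissues. The median over the 66 tested genes lay between 2282 and 4212 in eye-antennal discs, between 2378 and 5030.4 in wing discs and between 1486 and 2936 in brains (9 libraries each). In D. melanogaster, RpL41 had the highest signal of the 92 genes, at 9375 in RAL-208 and 10017 in Canton S eye-antennal discs, 10702 and 11207 in wing discs and 5249.8 and 8257 in brains. Among the 66 tested genes, RpS27A, RpL10, RpLP2 and RpS25 had the highest mean signal. RpLP0-like, RpL7-like, RpL24-like and RpL34b had the lowest.

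Within a library the levels of these genes were close to each other. Leaving out the -like genes, the 90th percentile of signal over the tested genes was 1.75 to 2.54 times the 10th percentile in the 24 libraries outside D. pseudoobscura. In the 3 D. pseudoobscura libraries the ratio was 5.98 to 6.09, and there RpL24, RpS19a and RpL30 were near 0. The 10th percentile there was 765, 780 and 534 in eye-antennal disc, wing disc and brain. Further genes were thus low in this species, among them RpS27 at 443 in the eye-antennal disc. The plot of signal by library shows the narrow band and the single points under it.

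**Figure D1:**
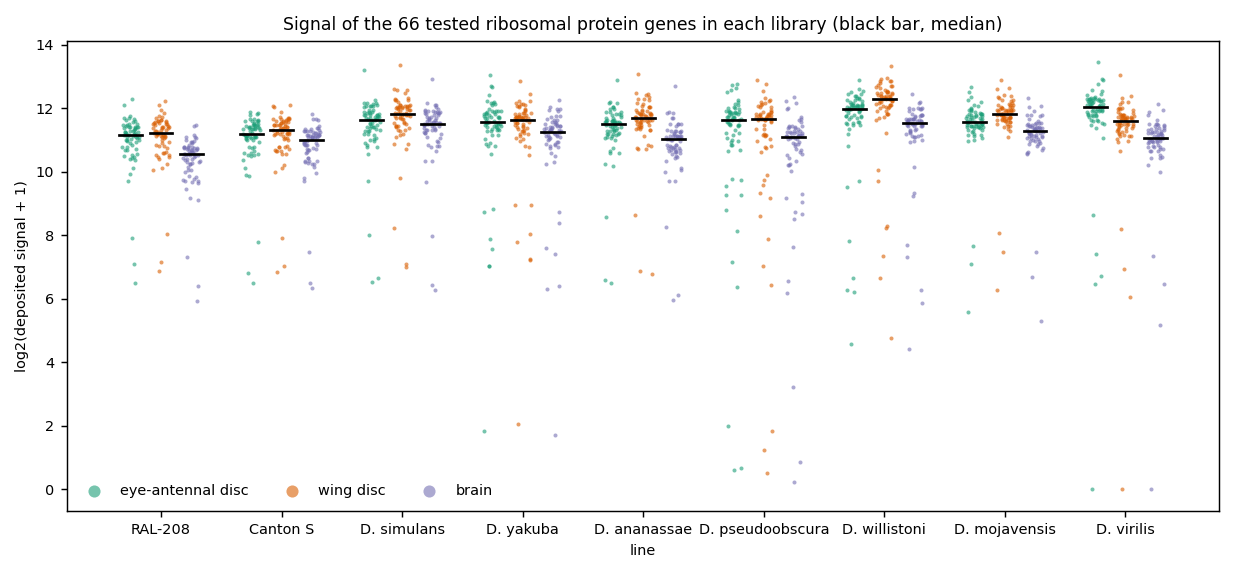
Log2(signal + 1) of the 66 tested genes (points) in each of the 27 libraries, by line and coloured by tissue, with the median as a black bar. The brain median is the lowest of the 3 tissues in every line, and single genes drop to near 0 in D. yakuba, D. pseudoobscura and D. virilis.

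In eye-antennal discs compared with brains, 63 of 66 tested genes rose and none fell, with a median log2 difference of 0.45 (1.37-fold). Over all 7677 genes tested, 25.8% rose and 26.8% fell, and the median was 0.00. The test was limma on log2(signal + 1) with line as a block, with Benjamini-Hochberg adjusted p under 0.05 over all genes. The called differences ran from 0.33 to 0.61, a narrow range beside the quartiles of all genes at -0.30 and 0.30. In 46 of the 66 genes the eye-antennal value exceeded the brain value in 9 of 9 lines, and in 63 it did so in at least 8. Without the -like genes, 34 of 37 large subunit genes and 26 of 26 small subunit genes were called, with medians of 0.46 and 0.44. The difference between the subunits was not tested.

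In wing discs compared with brains, 64 of 66 genes rose and none fell, with a median of 0.54 (1.45-fold), where 28.2% of all genes rose and 32% fell and their median was -0.02. Called differences ran from 0.40 to 0.76. In 64 genes the wing disc value was the higher in 9 of 9 lines, and in RpL27 and RpL30 in 8. Large subunit genes were called in 35 of 37 and small subunit genes in 26 of 26 cases, with medians of 0.54 and 0.51.

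Both counts rest on the pairing of tissues by line. Without line as a block, 16 genes rose in eye-antennal discs, where 11.9% of all genes rose, and 32 in wing discs, where 14% did, and no gene fell. In the 6 D. melanogaster libraries alone, edgeR on read counts called 1 of 87 genes, RpL18, as higher in eye-antennal discs (10% of all genes) and 57 of 87 as higher in wing discs (18.5%), with medians of 0.45 and 0.60.

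**Figure D2:**
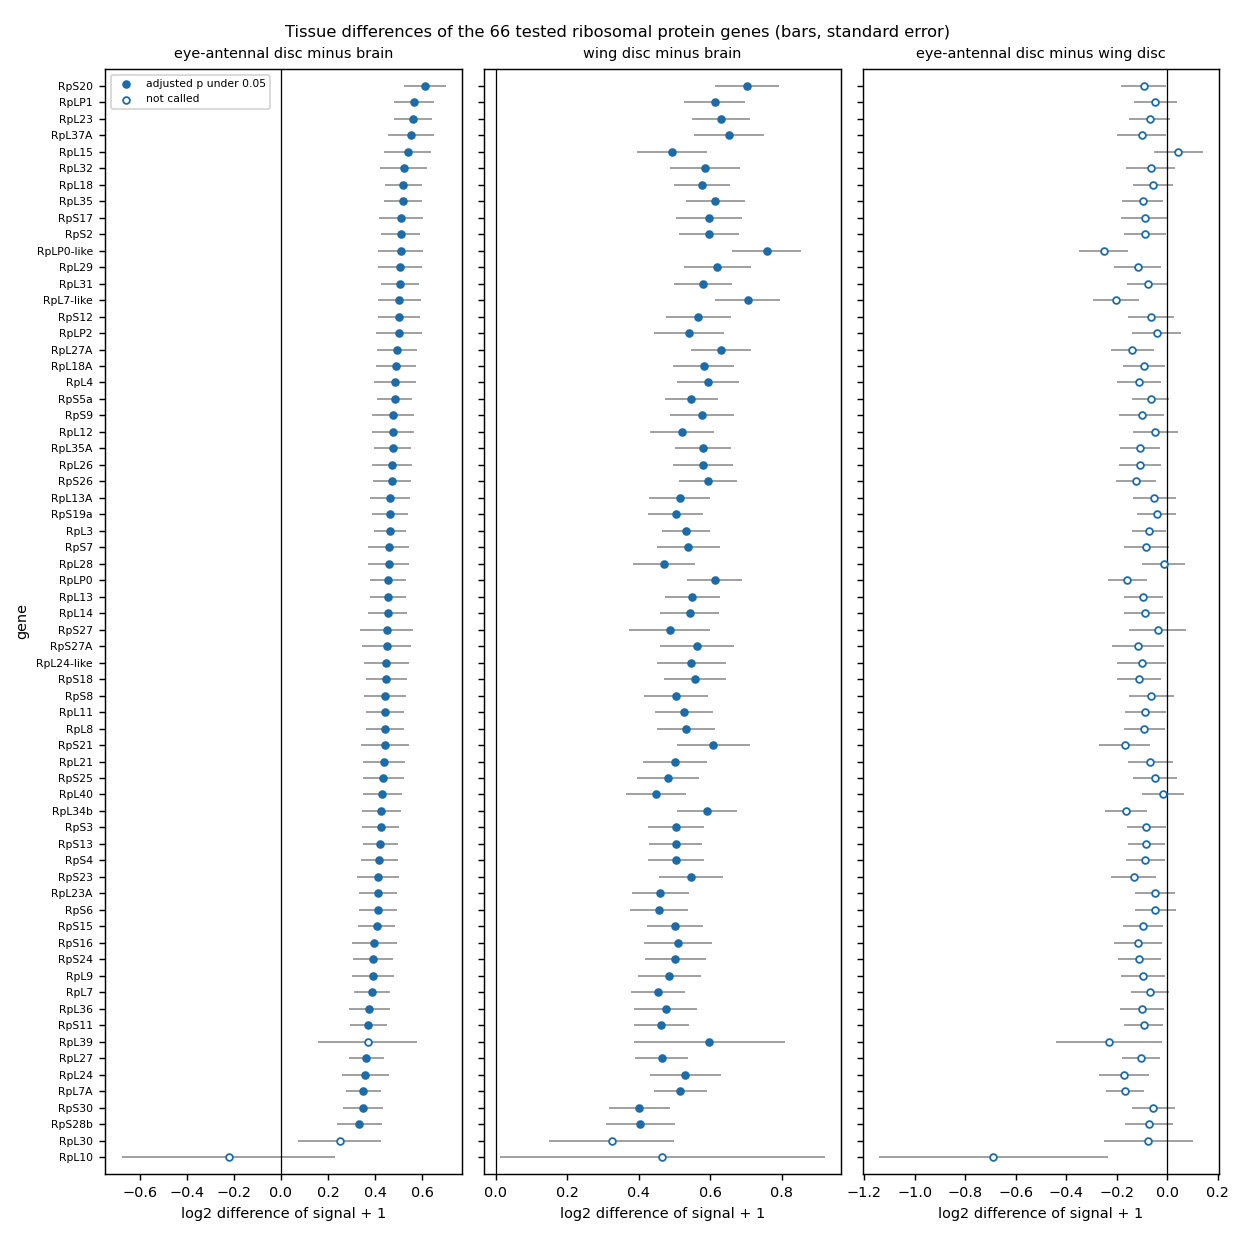
Log2 difference of signal + 1 for each of the 66 tested genes (rows) in the 3 tissue comparisons (panels), with the standard error as a bar, filled where the adjusted p is under 0.05. Nearly all genes sit between 0.33 and 0.76 against brain, and RpL10 stands out with the widest bars.

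The stalk proteins, encoded by RpLP0, RpLP1 and RpLP2, recruit the translation factors to the large subunit. RpLP1 had a lowest, median and highest signal over the lines of 2579, 3731 and 4547 in eye-antennal discs, 2649.5, 3512 and 5878 in wing discs and 1692, 2294 and 3356 in brains. It was higher in eye-antennal discs than in brains in all 9 lines, although the groups overlapped, with log2 differences of 0.57 (SE 0.08, adjusted p = 1.1e-05) and, for wing discs, 0.61 (SE 0.08, adjusted p = 2.9e-06). RpLP0 rose by 0.46 (SE 0.08, adjusted p = 4.4e-05) and 0.61 (SE 0.08, adjusted p = 7.6e-07). RpLP2 rose by 0.50 (SE 0.10, adjusted p = 0.00021) and 0.54 (SE 0.10, adjusted p = 6.7e-05), and its level differed more between lines than between tissues, from 2254 in D. mojavensis to 7594 in D. ananassae eye-antennal discs.

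RpS20, a protein of the head of the small subunit, had the largest difference between eye-antennal disc and brain. Its lowest, median and highest signal was 419, 2524 and 4974 in eye-antennal discs, 491, 3003 and 5428 in wing discs and 335, 1817 and 2810.2 in brains. It rose by 0.61 (SE 0.09, adjusted p = 7.7e-06) in eye-antennal discs and by 0.70 (SE 0.09, adjusted p = 8.6e-07) in wing discs, and was higher in each disc than in the brain in all 9 lines. The lowest value of each tissue came from D. yakuba. After RpS20 and RpLP1 came RpL23 and RpL37A in the eye-antennal comparison, at 0.56 and 0.55 in eye-antennal discs and 0.63 and 0.65 in wing discs.

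RpS6, the small subunit protein that S6 kinase phosphorylates downstream of the growth regulator Tor, had a difference under the median of these genes in both comparisons. Its lowest, median and highest signal was 2268, 3316 and 4988 in eye-antennal discs, 2328, 3470.1 and 5311 in wing discs and 1576, 2558 and 3226 in brains, and it rose by 0.41 (SE 0.08, adjusted p = 0.00025) and 0.46 (SE 0.08, adjusted p = 5.9e-05). RpL40 and RpS27A are both made as fusions with ubiquitin, which is cut off afterwards. RpL40 rose by 0.43 (SE 0.08, adjusted p = 0.00022) in eye-antennal discs and 0.45 (SE 0.08, adjusted p = 0.00011) in wing discs. RpS27A rose by 0.45 (SE 0.10, adjusted p = 0.0011) and 0.56 (SE 0.10, adjusted p = 8.6e-05), with the D. yakuba values of 2.56, 3.19 and 2.26 included.

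RpL32, known as rp49 and long used in Drosophila as a reference gene for measuring other transcripts, was looked at after its values were seen. Its lowest, median and highest signal was 875, 2838 and 4884 in eye-antennal discs, 856, 2989.6 and 6304 in wing discs and 628, 1578 and 3545 in brains, and the log2 differences were 0.52 (SE 0.10, adjusted p = 0.00015) and 0.59 (SE 0.10, adjusted p = 3.1e-05). Both differences lay within the range of the other ribosomal protein genes.

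The smallest called differences were those of RpS28b and RpS30, proteins of the small subunit. RpS30 rose by 0.35 (SE 0.08, adjusted p = 0.0017) and 0.40 (SE 0.08, adjusted p = 0.00035). RpS28b rose by 0.33 (SE 0.10, adjusted p = 0.0065) and 0.40 (SE 0.10, adjusted p = 0.0012). In D. simulans the RpS30 brain value of 3955 exceeded the eye-antennal value of 3535.

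The genes not called against the brain each had 1 line far from the rest. RpL30 gave 0.25 (SE 0.18, adjusted p = 0.25) for eye-antennal discs and 0.32 (SE 0.18, adjusted p = 0.12) for wing discs, and its D. pseudoobscura values were 2.95, 2.57 and 8.36 in eye-antennal disc, wing disc and brain, beside 1018 or more in every other library. RpL39, whose product lines the exit tunnel for the new protein, gave 0.37 (SE 0.21, adjusted p = 0.15) and 0.60 (SE 0.21, adjusted p = 0.019), with D. willistoni at 72.3, 298 and 207. With such single low lines set aside, the adjusted p of RpL30 was 0.0016 and that of RpL39 was 0.0014 for eye-antennal discs in limma, a check chosen after the values were seen.

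RpL10, which joins the large subunit late in its assembly in yeast, gave -0.22 (SE 0.45, adjusted p = 0.71) and 0.47 (SE 0.45, adjusted p = 0.39). Its signal in D. virilis was 104 in the eye-antennal disc, 4466 in the wing disc and 3536 in the brain. The deposited read counts of that gene were 45265, 30636 and 24426, and the first corresponds to a signal of 7082 on the scale of the same library. With that value in place, RpL10 rose by 0.45 (SE 0.10, adjusted p = 0.00061, limma) in eye-antennal discs. RpL17 in D. virilis showed the same disagreement, at a deposited signal of 3.3 in the eye-antennal disc against 3193 from 17428 reads. A gene was paired with a read count only where all tissues agreed, so paired genes could not show a disagreement. Among unpaired genes, a disagreement could be seen only where the other tissues had ample signal that fitted a count row. RpL10 and RpL17 were found this way. Genes without signal in a line, such as RpL27 in D. virilis, could not be checked.

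Between eye-antennal and wing discs, limma called none of 66 genes, where 21.3% of all genes were, and the median log2 difference was -0.09. At an unadjusted p under 0.05 there were 3 genes, beside 2493 of all 7677. Over the 9 lines the log2 difference was below 0 for 65 of 66 genes, the exception being RpL15 at 0.04 (SE 0.10, adjusted p = 0.8). RpL10, with the disagreeing value, gave -0.69 (SE 0.45, adjusted p = 0.32). Next lowest were -0.25 (SE 0.10, adjusted p = 0.071) for RpLP0-like, -0.23 (SE 0.21, adjusted p = 0.5) for RpL39 and -0.20 (SE 0.09, adjusted p = 0.13) for RpL7-like. D. virilis stood apart: without it, limma called 8 of 66 genes lower in eye-antennal discs, where 8.08% of all genes were, and the median was -0.15. The 8 were RpL24, RpL34b, RpL7-like, RpL7A, RpLP0, RpLP0-like, RpS2 and RpS23. The direction did not hold in every line: 31 genes were higher and 35 lower in the eye-antennal disc of D. yakuba, and 32 and 34 in that of D. pseudoobscura. In the 4 lines with the least neuronal signal in the eye-antennal library, the median was 0.04 and no gene was called. D. virilis was among these lines, with a median of 0.45. The medians were -0.23 in D. ananassae, -0.005 in D. yakuba and -0.003 in D. pseudoobscura. Markers of other cells differed between the discs as well, with neuronal (6 of 6 tested), glial (4 of 4), muscle (5 of 5) and ring gland (4 of 4) genes called higher in eye-antennal discs, and their part in the ribosomal protein values was not tested.

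The size of the tissue difference varied between lines, while within a line most ribosomal protein genes differed by about the same amount. For eye-antennal disc minus brain, the median over the 66 genes was 0.09 in D. simulans, 0.25 in Canton S, 0.32 in D. yakuba, 0.34 in D. mojavensis, 0.43 in D. willistoni, 0.49 in D. ananassae, 0.51 in D. pseudoobscura, 0.66 in RAL-208 and 0.96 in D. virilis. In 3 lines all 66 genes were higher in the eye-antennal disc, and in D. simulans 50 were. Within a line the genes spread little around these medians, with interquartile ranges of 0.10 to 0.21, against 0.66 to 1.23 over all genes. Medians of all genes stayed near 0 in each line.

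For wing disc minus brain, the medians ran from 0.31 in D. simulans to 0.79 in D. willistoni, and all 66 genes were higher in the wing disc in 7 of 9 lines. Between the discs, the medians ran from -0.35 in D. willistoni to 0.45 in D. virilis. D. virilis was the single line above 0, with 64 genes higher in the eye-antennal disc. In D. ananassae, D. willistoni and D. mojavensis all 66 genes were lower there.

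**Figure D3:**
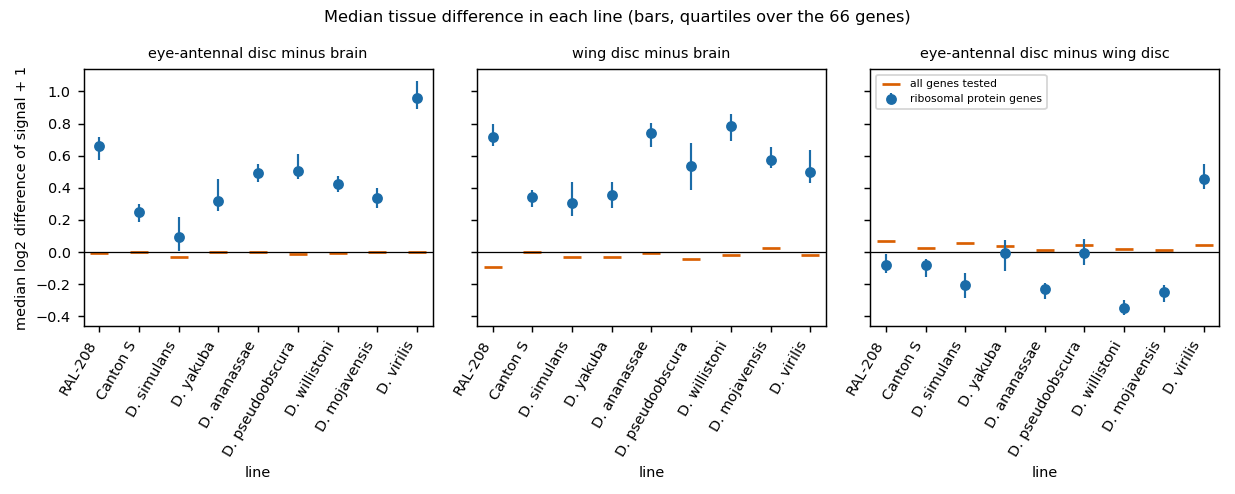
Median log2 difference of signal + 1 over the 66 tested genes in each line (blue points, with quartiles over genes as bars) and over all 7677 genes (orange dashes), for the 3 tissue comparisons (panels). The ribosomal protein medians lie above 0 in all 9 lines against brain, while D. virilis alone lies above 0 between the discs.

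Neuronal marker signal in the eye-antennal library, as a share of that in the brain of the same line, was 34.7% in D. simulans, 26.5% in D. mojavensis, 24.9% in RAL-208, 17.4% in D. willistoni, 13.5% in D. ananassae, 9.77% in D. yakuba, 9.51% in D. pseudoobscura and 5.73% in D. virilis. In Canton S the sums were 126 in the eye-antennal disc and 629 in the brain. The line with the largest share had the smallest ribosomal protein difference and the line with the smallest share the largest, whereas the lines between them did not follow this order. D. simulans also had the smallest median for wing disc minus brain, at 0.31, where D. virilis had 0.50. Whether the share and the difference are related was not tested. In the 4 lines under 15%, a choice made after the data were seen, limma called 62 of 66 genes higher in eye-antennal discs than in brains with a median of 0.58, where 19% of all genes rose. The median of D. virilis was 0.96, beside 0.49 in D. ananassae, 0.32 in D. yakuba and 0.51 in D. pseudoobscura. In the same 4 lines 54 of 66 rose in wing discs, where 19.1% of all genes did, and the median was 0.54. In wing discs the neuronal share was 2.52% to 7.95%. Glial markers (4 of 5 tested) and neuroblast markers (5 of 6 tested) were lower in discs in 4 and 4 cases for eye-antennal discs and 4 and 5 for wing discs. Of 5 muscle genes, 3 were higher in eye-antennal discs than in brains, and none was called between wing disc and brain. No fat body (3 tested) or hemocyte (3 tested) gene was called against the brain, although the summed fat body signal ran from 21.4 to 9026 over the libraries. Of 4 ring gland genes, 4 were lower in wing discs than in brains, and of 6 tested testis and germ line genes 1 was lower in eye-antennal and 2 in wing discs. The part of these cell types in the ribosomal protein differences was not tested.

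The share of the whole library changed with the levels. The 67 genes with full values made up 25.4% to 33.8% of the summed signal of such genes in eye-antennal discs, 26.3% to 38.9% in wing discs and 18.0% to 28.7% in brains. The eye-antennal share exceeded the brain share in 9 of 9 lines, by 5.50 ± 2.90 percentage points (SD, n = 9), and the wing disc share did so by 6.72 ± 2.36. In reads rather than length-scaled signal, 62 of these genes took 10.3% ± 2.13 of counted reads in eye-antennal discs, 10.8% ± 2.27 in wing discs and 8.01% ± 1.90 in brains (SD, n = 9), again higher in each disc than in the brain in 9 of 9 lines. The shares of signal and of reads differ in unit, in genes counted and in denominator, so they are not compared with each other.

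Genes that make or assist ribosomes were listed separately. Of 16 tested genes for ribosome production, 15 rose in eye-antennal discs and 15 in wing discs, where 25.8% and 28.2% of all genes rose, and none fell. Of the 16, 10 were lower in eye-antennal than in wing discs, where 6.24% of all genes were lower and 15% higher. Fib, the methyltransferase fibrillarin that modifies ribosomal RNA, had the largest differences from brain, at 0.68 (SE 0.09, adjusted p = 2.3e-06) and 1.11 (SE 0.09, adjusted p = 1.2e-09). It was followed by nop5 at 0.67 (SE 0.09, adjusted p = 5.8e-06) and 0.98 (SE 0.09, adjusted p = 1.8e-08). Fib was also lower in eye-antennal than in wing discs, at -0.43 (SE 0.09, adjusted p = 0.0013).

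Of 20 translation factors tested, 14 rose and 2 fell in eye-antennal discs, where 25.8% of all genes rose and 26.8% fell. In wing discs 15 rose and 2 fell, where 28.2% and 32% of all genes did. Ef1alpha48D, the main elongation factor 1 alpha, rose by 0.71 (SE 0.08, adjusted p = 5.3e-07) and 0.83 (SE 0.08, adjusted p = 3.6e-08), and Ef1beta by 0.62 (SE 0.09, adjusted p = 3.9e-06) in eye-antennal discs. Those that fell were Ef1alpha100E, a second gene for the same factor, at -2.89 (SE 0.48, adjusted p = 4.1e-05) and -4.70 (SE 0.48, adjusted p = 4.8e-08), and eIF5 at -0.26 (SE 0.06, adjusted p = 0.002) and -0.32 (SE 0.06, adjusted p = 0.00025). Of 7 listed ribosomal protein names, meant to cover older symbols and names outside the main pattern, 3 were in the table and tested. RpL10, already counted among the tested RpL genes and described above, was not called. The additional genes sta and Rack1 of the small subunit both rose against the brain, sta by 0.51 (SE 0.08, adjusted p = 3.0e-05) and Rack1 by 0.47 (SE 0.08, adjusted p = 4.5e-05) in eye-antennal discs.

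Mitochondrial ribosomal protein genes, whose products serve the separate ribosome of the mitochondrion, were set beside these. Of 61 tested among 72, 11 rose and 1 fell in eye-antennal discs, where 25.8% of all genes rose and 26.8% fell. In wing discs 20 rose and 1 fell, where 28.2% and 32% of all genes did. The medians of the mitochondrial genes were 0.10 and 0.13. The largest rises were those of mRpS16 at 0.36 (SE 0.10, adjusted p = 0.0039) in eye-antennal discs and mRpS10 at 0.55 (SE 0.07, adjusted p = 2.1e-06) in wing discs, and mRpL53 was lower at -0.62 (SE 0.14, adjusted p = 0.0012) and -0.62 (SE 0.14, adjusted p = 0.00093). No test compared the lists with each other.

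Of 19 growth control genes, 2 rose and 2 fell in eye-antennal discs, where 25.8% of all genes rose and 26.8% fell. In wing discs 4 rose and 1 fell, where 28.2% and 32% of all genes did. Those that rose in both were dm, the Drosophila Myc gene, at 0.65 (SE 0.09, adjusted p = 5.7e-06) and 1.11 (SE 0.09, adjusted p = 1.8e-09), and foxo at 1.12 (SE 0.12, adjusted p = 1.9e-07) and 1.03 (SE 0.12, adjusted p = 3.5e-07). Akt1 and Pdk1 fell in eye-antennal discs by 0.26 (SE 0.07, adjusted p = 0.0029) and 0.29 (SE 0.12, adjusted p = 0.046) on the log2 scale. Thor, the inhibitor of translation initiation also called 4E-BP, was the 1 that fell in wing discs, at -1.72 (SE 0.28, adjusted p = 2.6e-05). Of the 5 tested genes of the response to ribosomal protein loss, Xrp1, which is induced in Minute cells, rose by 0.60 (SE 0.09, adjusted p = 2.0e-05) and 0.61 (SE 0.09, adjusted p = 9.8e-06), CG6272 by 0.43 (SE 0.11, adjusted p = 0.0025) and p53 by 0.49 (SE 0.11, adjusted p = 0.00063) in eye-antennal discs, and the cell death gene grim was lower at -2.50 (SE 0.19, adjusted p = 1.6e-09) and -4.05 (SE 0.19, adjusted p = 1.4e-12).

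Paralogous names numbered 23: 9 ending in a, 9 in b and 5 in -like. RpL37a and RpL37A are different genes, and only the first is counted as a paralog name. RpL10Aa had no counted read in any of the 6 D. melanogaster libraries, where a count of 0 allows up to 3 reads, whereas RpL10Ab had 7929 to 26181. RpL22-like had 3 to 15 reads and RpS19b 3 to 31. RpS10a had 0 to 2 reads, RpS28a 0 to 2 and RpS28-like 0 to 4. In D. melanogaster RpL22-like and RpS19b are known for expression in the germ line. In the other species RpL37b peaked at 0.848, RpL10Aa at 0.124 and RpL22-like at 3.55. RpS19b reached 56.9 in D. yakuba eye-antennal discs and 31.8 in D. willistoni wing discs, against 5.28 or less in the other lines with a value.

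RpS5b was the 1 ribosomal protein gene called lower in discs. In D. melanogaster its partner RpS5a is the common form and RpS5b is known from the ovary. RpS5b had 30, 4 and 104 reads in RAL-208 eye-antennal disc, wing disc and brain and 50, 15 and 214 in Canton S. Its signal in the eye-antennal disc, wing disc and brain was 3.9, 1.54 and 8.34 for RAL-208 and 6.3, 1.7 and 24.2 for Canton S. D. simulans had 6.2, 2.07 and 26. D. virilis had the highest level, at 49.3, 38.5 and 184, from 348, 292 and 1407 reads, and D. mojavensis gave 1.49, 1.59 and 9.35. The brain was thus the highest tissue in these 5 lines. D. yakuba, D. ananassae and D. pseudoobscura stayed between 1.47 and 4.97 with no tissue clearly highest, and D. willistoni had no value. In the fit of genes with a value in at least 4 lines, RpS5b was lower in eye-antennal discs by 1.06 (SE 0.34, adjusted p = 0.015) and in wing discs by 1.56 (SE 0.34, adjusted p = 0.00074) on the log2 scale. In the D. melanogaster read counts alone, edgeR gave -3.18 (SE 0.57, adjusted p = 0.013) for wing disc minus brain. RpS5a rose by 0.48 (SE 0.07, adjusted p = 1.6e-05) and 0.55 (SE 0.07, adjusted p = 2.3e-06).

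That fit, chosen after the data were seen, tested 87 of the 92 genes. In eye-antennal discs 78 rose and 1, RpS5b, fell, where 24.8% of all genes rose and 25.6% fell. In wing discs 80 rose and RpS5b again fell, where 27.1% and 31.2% did. Of the genes with gaps, RpL5 rose by 0.55 (SE 0.09, adjusted p = 0.00013) over 6 lines and RpL22 by 0.54 (SE 0.09, adjusted p = 6.1e-05) over 8. RpL34a, which had values in the 4 lines of the melanogaster subgroup, gave 0.30 (SE 0.13, adjusted p = 0.076) and 0.45 (SE 0.13, adjusted p = 0.012), and its partner RpL34b rose by 0.43 (SE 0.08, adjusted p = 0.00023) and 0.59 (SE 0.08, adjusted p = 3.9e-06).

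Some pairs had identical values in all 3 tissues of a species. RpS28a and RpS28b did so in D. virilis, D. mojavensis, D. willistoni, D. pseudoobscura and D. ananassae, RpS15Aa and RpS15Ab in D. simulans, D. yakuba and D. willistoni, RpS10a and RpS10b in D. mojavensis and D. virilis, and RpS14a and RpS14b in D. virilis. For these pairs a level in another species says nothing of which copy it belongs to. In D. melanogaster, where they are separate, RpS15Aa had 3070 to 11462 reads and RpS15Ab 826 to 2166, and RpS14a had 2529 to 7813 and RpS14b 603 to 2164. How reads that match both copies were counted was not given in the sources used here, so the split within these near-identical pairs is uncertain.

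**Figure D4:**
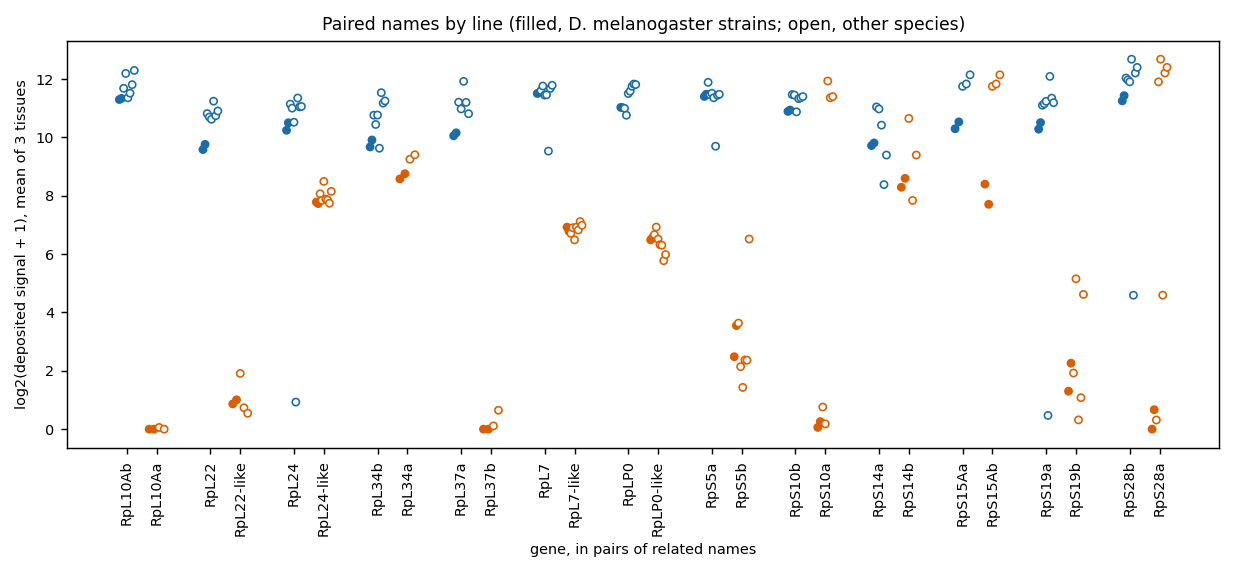
Log2(signal + 1), as the mean of the 3 tissues of a line, for 13 pairs of related names, with filled points for the D. melanogaster strains and open points for other species. RpL10Aa, RpL37b and, in D. melanogaster, RpS10a and RpS28a lie near 0, and the -like genes RpL24-like, RpL7-like and RpLP0-like lie under their partners except for RpL24 in D. pseudoobscura.

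RpL24-like, RpL7-like and RpLP0-like formed another group. Their yeast counterparts are assembly factors of the maturing large subunit. RpL24-like ranged from 201 to 397 in eye-antennal discs, 232 to 398 in wing discs and 157 to 305 in brains, RpL7-like from 89.5 to 170.3 in eye-antennal discs, 109 to 178 in wing discs and 67.9 to 102 in brains, and RpLP0-like from 46.4 to 129.8 in eye-antennal discs, 64.7 to 148 in wing discs and 34.8 to 84 in brains. RpLP0, the partner of the last, ranged from 1772 to 4755 in eye-antennal discs, 1993 to 4559 in wing discs and 1444 to 2781 in brains. RpLP0-like and RpL7-like had the 2 largest differences between wing disc and brain of all tested members, at 0.76 (SE 0.10, adjusted p = 9.2e-07) and 0.70 (SE 0.09, adjusted p = 1.1e-06), and both were higher in the wing disc in 9 of 9 lines. In eye-antennal discs they rose by 0.51 (SE 0.10, adjusted p = 0.00016) and 0.50 (SE 0.09, adjusted p = 9.2e-05). RpL24-like rose by 0.45 (SE 0.10, adjusted p = 0.00062) and 0.55 (SE 0.10, adjusted p = 5.9e-05).

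Variation between lines was described by the SD. The SD over the 9 lines of log2(signal + 1), averaged over the tissues, had a median of 0.47 over the 66 genes, with quartiles of 0.36 and 0.72, and of 0.50 over all 7677 genes, with quartiles of 0.36 and 0.80. Only 9 other genes had a mean level as high as the lower quartile of these genes, and their median was 0.38. With a pseudocount of 5, the median was 0.47 over the 66 genes and 0.38 over all 7677. Which of these was the higher thus depended on the pseudocount. The least variable were RpL14 at 0.22, RpS24 at 0.22, RpL7-like at 0.23 and RpL4 at 0.26. RpL14 had a lowest, median and highest signal of 2165, 2812 and 3505 in eye-antennal discs.

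Gene lengths differed between lines as well. The D. melanogaster strains had the lowest median levels, 2048 and 2298 as the mean of 3 tissues, against 2749 to 4003 in the other species. The gene length that links each count to its signal had a median of 791 bases in D. melanogaster, 571.5 in D. pseudoobscura and 469.5 to 477 in the other 6 species. In every line the values fix only the ratios between lengths, so these lengths are inferred. Whole-number lengths were solved for, and comparison with D. melanogaster coding lengths set their unit. The unit was 1 base in D. melanogaster and D. pseudoobscura and 3 bases in the other 6 species. Levels of a gene in different species therefore carry the length of its model, while differences between tissues of a line do not. The part of length in the lower D. melanogaster levels was not tested.

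The most variable genes were RpL27 at 3.92, RpS19a at 3.58, RpS27A at 3.51 and RpL24 at 3.33, and in each of these 1 line was almost without signal. RpL27 was listed at 0 in all 3 tissues of D. virilis and was 1286 or more in every other library. RpS19a in D. pseudoobscura was 0.575, 0.414 and 0.166 and 906 or more elsewhere. RpS27A in D. yakuba was 2.56, 3.19 and 2.26, from 15, 23 and 15 reads. RpL24 in D. pseudoobscura was 0.531, 1.36 and 0.818. With values under 10% of the median over lines set aside, the SD of these 4 genes was 0.69, 0.56, 0.41 and 0.42. Such low entries made 15 of 720 entries of ribosomal protein genes (2.08%) and 1.59% of those of all genes. Whether the right ortholog was matched in these lines was not tested.

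**Figure D5:**
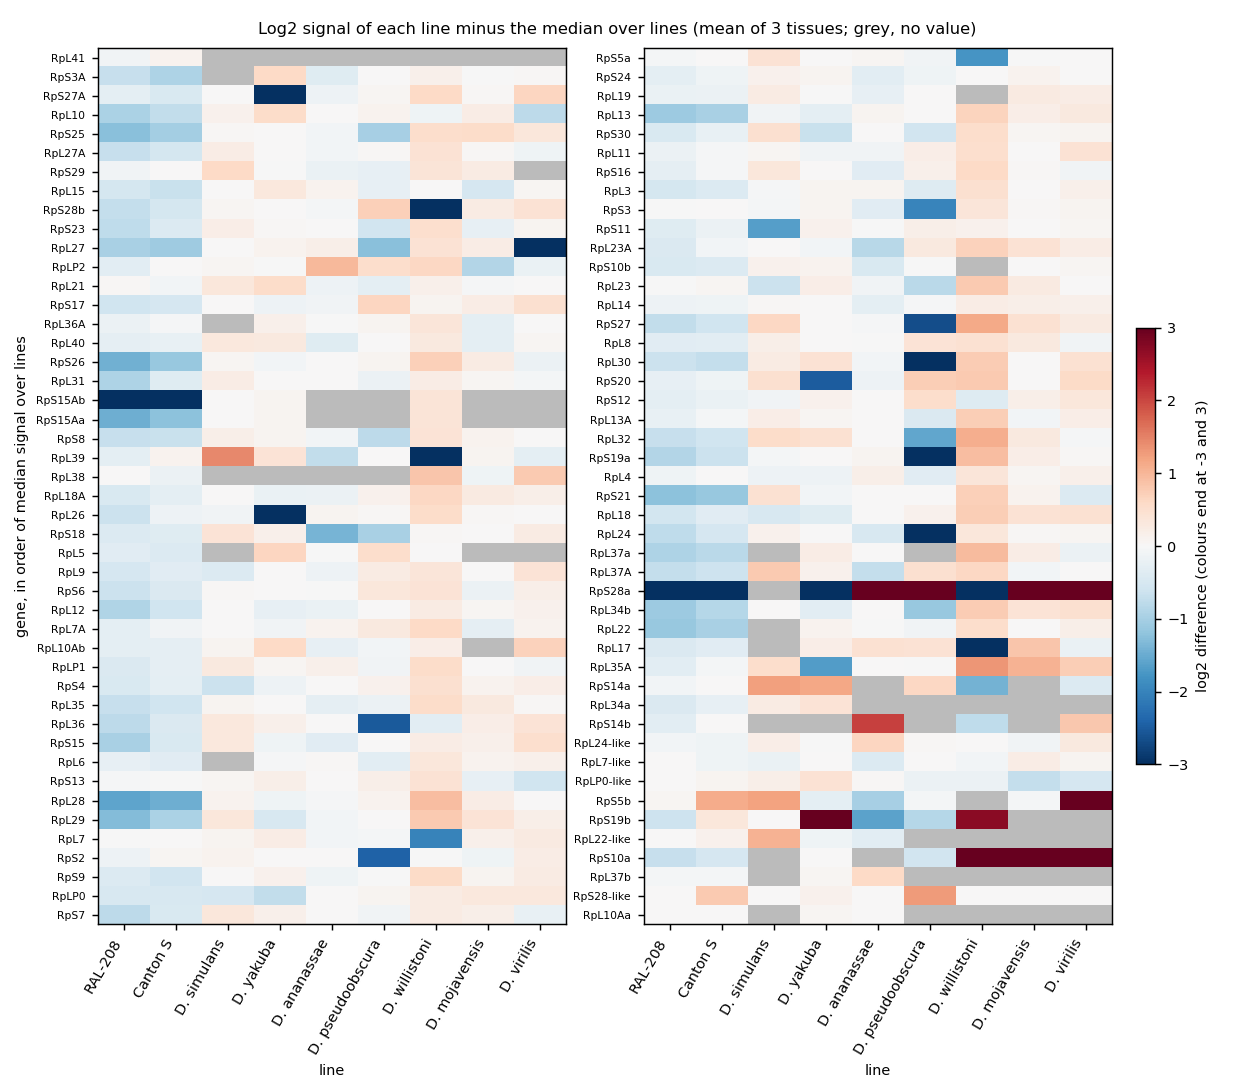
Log2 signal of each line minus the median over lines, from the mean of 3 tissues, for the 92 genes (rows, in 2 columns by median signal) and 9 lines, with grey where a line has no value. Single dark blue cells mark genes such as RpS27A in D. yakuba, RpS28b in D. willistoni and RpL27 in D. virilis, and the first 2 columns are pale blue for many genes.

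Whether the tissue differences depended on lineage was tested as an interaction between tissue and the melanogaster subgroup, that is RAL-208, Canton S, D. yakuba and D. simulans (4 lines against 5). None of the 66 genes was called by limma in any of the 3 comparisons, where 0.0651%, 0.534% and 0% of all genes were called, and none had an unadjusted p under 0.05. The medians were -0.22 for eye-antennal disc minus brain, -0.20 for wing disc minus brain and -0.02 between the discs, and the estimate against brain was below 0 for 62 and 63 of 66 genes. Over all genes the medians were 0.01, -0.04 and 0.05. The 66 genes moved together within a line, so their signs are not separate observations. Because related lines are not independent draws, these p-values are approximate.

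Between the D. melanogaster strains, edgeR on read counts with tissue as a block called none of 87 genes, where 0.295% of all 9476 genes were called. At an unadjusted p under 0.05 there were 14 genes, 13 of them lower in RAL-208. They made 16.1% of the 87, close to the 16.6% of all genes (1577 of 9476), of which 760 were lower. DESeq2 called 7 of 87, where it called 5.32% of all genes. The median log2 difference was -0.19, against -0.01 over all genes, and 77 of 87 genes were below 0. Genes of a library are not independent, so these signs are not separate observations. The shift was largest in the brain, where the median log2 ratio of RAL-208 to Canton S in CPM (read counts scaled to the library total) was -0.55, with 85 of 87 genes lower, against -0.08 in wing discs and -0.03 in eye-antennal discs. RpS15Ab ran the other way, with 178 CPM in RAL-208 and 95.4 in Canton S eye-antennal discs, 201 and 129 in wing discs and 101 and 83.4 in brains. Its log2 difference was 0.63 (SE 0.13) in edgeR with an adjusted p of 0.18, and 0.65 in DESeq2 with an adjusted p of 0.0033. The partner RpS15Aa gave -0.29 in edgeR (adjusted p = 0.3), and the split of reads between these near-identical copies is uncertain. RpL31, lower in RAL-208, had 769, 828 and 443 CPM in eye-antennal disc, wing disc and brain against 1039, 1208 and 916 in Canton S, at -0.65 in edgeR (adjusted p = 0.19) and -0.63 in DESeq2 (adjusted p = 0.00094). RpL31 was chosen after its values were seen. The design has 1 library per strain and tissue, and its 2 residual degrees of freedom limit what can be called. On simulated counts, 1.47% of 68 genes changed by 0.5 on the log2 scale were recovered. Those genes were drawn at random from all levels, so the rate for genes as highly expressed as these was not measured.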

How the data were processed

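Per the labels' protocols, RNA came from an RNAqueous micro kit and libraries from an Illumina TruSeq kit. Per the submitters' processing notes, TopHat2 2.0 and HTSeq were used, and which genome builds they used was not given in the sources used here, so no coordinates are reported. The authors deposited read counts per gene for each of 27 libraries and 1 table of signal under D. melanogaster symbols. The deposited signal equalled the read count times a library factor over a gene length, to a tolerance of 1e-07, for the genes that could be paired (90.2% to 96.0% per line of the genes above 0 in all 3 tissues). The column headed only by the species name was taken as RAL-208.

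Tissues and lineages were compared with limma 3.58.1 (R 4.3.3) on log2(signal + 1), with an intensity trend and line as a block, over 7677 genes with a value in every library and at least 1 in at least 9. Libraries of a line deviated together (r = 0.62 to 0.86 across genes, 27 pairs). The standard error is limma's moderated one. Strains were compared with edgeR 4.0.16 (TMM, quasi-likelihood) on counts of 9476 genes whose CPM reached 1 in 2 or more libraries, with tissue as a block, and with DESeq2 1.42.0 as the alternative. For edgeR the SE was derived from the log2 difference and F. Benjamini-Hochberg adjustment ran over all genes tested. Nothing says that strains or tissues were sampled from separate cultures, so p-values measure the spread between these libraries.

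Both fits were tested on simulated data. For 7677 genes in 9 lines, limma recovered 50% of changes of 0.5 and 81% of changes of 1 on the log2 scale. Only 100 genes were changed by each amount, whereas in the data 25.8% of genes rose and 26.8% fell in eye-antennal discs against brain. The adjustment was therefore stricter in the simulation, and these rates do not give the recovery in the data. Genes named are paralog names and their partners, stalk and ubiquitin fusion genes, RpS6, and the 4 highest and lowest by tissue difference, mean level and SD between lines. In the other lists they are the 2 called genes with the largest change. RpL5, RpL18, RpL32 and the remaining genes outside this rule were chosen after their values were seen. The members and lists were chosen with earlier results of these data known. Alternatives tried were the pseudocount, the filter, equal medians, no block, each line left out, D. melanogaster counts alone and counts recovered from the signal.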

Additional observations from a re-analysis of the deposited data

Results flagged for a closer look

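For each named gene with a value in all 9 lines, the 9 values of a tissue on the log2 scale were checked for a line whose gap to the nearest other, divided by the whole range, passed the critical value of Dixon's test for 9 values. Of 93 such groups, 36 had a line apart. Chance flags about 1 in 20 groups when genes are not chosen by their values, but some of these genes were chosen for a large SD between lines or an extreme tissue difference, and the 3 tissues of a line are related. The number of groups with a line apart is therefore a description only. Every gene with 3 entries below is given in the order eye-antennal disc, wing disc and brain.

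Lines with almost no signal accounted for many. RpL24 in D. pseudoobscura was 0.531, 1.36 and 0.818, RpS19a in the same species was 0.575, 0.414 and 0.166, and RpL30 there was 2.95, 2.57 and 8.36. RpS27A in D. yakuba was 2.56, 3.19 and 2.26. RpL27 in D. virilis was 0 in all 3 tissues. RpS28b in D. willistoni was 22.9, 26.3 and 20.2, and RpL39 there was 72.3, 298 and 207.

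Others were low without being near 0. RpL7 in D. willistoni was 735, 837 and 647, from 5178, 6833 and 6374 reads. RpS5a in the same species was 837, 1056 and 601, from 5382, 7870 and 5403 reads. RpS20 in D. yakuba was 419, 491 and 335. RpS27 in D. pseudoobscura was 443 in the eye-antennal disc and 391 in the wing disc, and RpL4 in its brain was 1181.

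RpL10 in the D. virilis eye-antennal disc was 104, against a signal of 7082 from its deposited read count. RpS28-like was high rather than low, at 2.47 in the D. pseudoobscura eye-antennal disc and 1.21 in the Canton S wing disc, where 4 reads were counted.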

How the results depend on the processing

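For eye-antennal disc minus brain, 63 genes were called as reported. The count was 16 with no replicate block, 1 with D. melanogaster read counts alone, and 63 to 64 with each line left out. For wing disc minus brain, the count of 64 became 32 with no replicate block and lay between 63 and 65 with each line left out. Between the discs, the count of 0 became 1 with equal medians (RpLP0-like, lower), where 773 of all 7677 genes were lower and 1043 higher. On counts recovered for all 9 lines, 61 genes tested, the count was 1 in edgeR (RpL7A) and 2 in limma (RpL7A and RpLP0-like), all lower. Of all 5540 genes there, edgeR called 653 lower and 590 higher, and limma 694 and 632. With each line left out the count was 0 to 8, the 8 without D. virilis, where 8.08% of all genes were lower. The median log2 differences stayed within 1 SD of the medians of single lines under every alternative run: with each line left out they ranged from 0.39 to 0.50, from 0.50 to 0.57 and from -0.15 to -0.06. Interactions stayed at 0 calls under all 6 alternatives run. For the strains, edgeR stayed at 0 with each tissue left out, with no filter, with DESeq2 size factors and with no replicate block, and DESeq2's own test called 7. The difference in library share between eye-antennal disc and brain, 5.50 percentage points of signal, was 2.55 points of reads in D. melanogaster and 2.24 points of reads in all lines over 62 genes. The median SD between lines, 0.47, was 0.48 with equal medians and 0.43 with low entries set aside. With a pseudocount of 5 it was 0.47, while the median SD of all genes fell from 0.50 to 0.38. Of 90 results for single named genes in each of 7 settings, none reversed and 35 lost the call with no replicate block. Calls were gained by 3 with low entries set aside, 2 with disagreeing values replaced and 1 each with equal medians and a pseudocount of 5. The recovered counts, low entries and replaced values were chosen after the data were seen. The causes were not tested.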
